A study of Mus musculus with 2 samples.

Results

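The genes described here are the ATF4 stress response and the biosynthetic enzymes that belong to it: 6 transcription factors, 7 feedback and stress effectors, 3 eIF2alpha kinases, 7 enzymes that make serine and other amino acids, 6 enzymes of folate one-carbon metabolism and 12 cytosolic tRNA synthetases. They were selected by name as a group of 41 genes, with their log2 differences between IL-4-treated and untreated cells already known, so those differences are a description and carry no test. Each gene was read from its brightest probe, and 40 of the 41 had a probe that matched by RefSeq accession. Pycr1, which makes proline in the last step of its synthesis, had none and was not measured here. The array held 32448 genes and unnamed transcripts in all, and the 40 measured genes were all well above background on both arrays, none of them saturated.

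The cells were bone marrow-derived macrophages (BMDMs), grown from the marrow of 8-week-old male mice in M-CSF, the growth factor that turns marrow precursors into macrophages. The mice carried a floxed Crif1 gene (Crif1 f/f), no Cre line was named for the arrays, and both conditions shared this genotype. One condition was untreated and the other was treated with IL-4 for 18 h, the cytokine that drives macrophages toward the alternatively activated (M2) state. Each was hybridised to 1 single-colour Agilent array, 2 arrays in all on the same slide, and the number of animals behind each was not stated. With 1 array per condition no difference could be set against the spread between replicates, and so few arrays limit how precise any value is.

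ATF4 is a transcription factor whose mRNA is translated when the initiation factor eIF2alpha is phosphorylated, which happens in response to ER stress, amino acid shortage, heme shortage or mitochondrial damage. It pairs with C/EBP family proteins and switches on genes for amino acid uptake and synthesis, tRNA charging, and a set of regulators that either restore translation or commit the cell to death. Serine made by this route feeds the folate cycle, which supplies carbon for purines and for methylation.

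All values are differences of IL-4-treated minus untreated cells in log2 signal, after each array was scaled to its own 75th percentile, which lay at a log2 intensity of 9.84 in untreated and 9.94 in IL-4-treated cells. Intensities are given as the scanner software wrote them, background-subtracted and before that scaling, so a gene whose intensity is slightly higher after IL-4 can have a log2 difference below 0. The error given with a log2 difference (±) is the software's own estimate for the spots, which lay between 0.20 and 0.24 for these genes. For all of them but Yars and Shmt1 it was close to 10% of the signal on each array. Exceeding the error is therefore close to passing a fixed cutoff of 0.20. The spread between repeated spots of other probes at the same brightness was smaller, with a median SD of 0.05. Neither covers the spread between cultures.

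Most of the group had a slightly higher signal after IL-4, though 20 of the 40 genes lay within the error. The median difference over the 40 genes was 0.18, against -0.01 over the 17242 genes on the array that both conditions had well above background, and it was still 0.18 without Atf3. The difference was above 0 for 33 of the 40 genes, or 82.5%, against 47.4% of all genes, and for 28 to 40 of them under other scalings, where the share of all genes ran from 37.9% to 85.5%. It exceeded the error in the upward direction for 19 genes, or 47.5%, against 17.5% of all genes, and in the downward direction for 1 gene, against 22.4% of all genes. Past 2 times the error, 5 of the 40 genes were higher, beside 7.02% of all genes, and 0 were lower, beside 8.68%. Large changes were not a feature of the group: Atf3 alone was at least 2-fold higher, or 2.5% of the 40 genes, and none was at least 2-fold lower. The matching shares, 2.86% and 4.47%, were counted over a wider set, the 19743 genes detected on 1 or both arrays. That set includes 2501 genes detected on 1 array only, whose differences are bounds, whereas all 40 listed genes were detected on both. The level of this shift depends on how the arrays are scaled, since scaling on the median or on spike-in RNA moved the median of all genes to 0.20 and 0.32. Relative to all genes, the median of the group lay between 0.14 and 0.23 higher under each of 10 other settings. In every setting 28 of the 40 genes were above the median of all genes and 4 were below it. The matching shares of all genes were not counted. Several of these settings subtract 1 value per array, which leaves the place of a gene relative to that median unchanged.

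**Figure D1:**
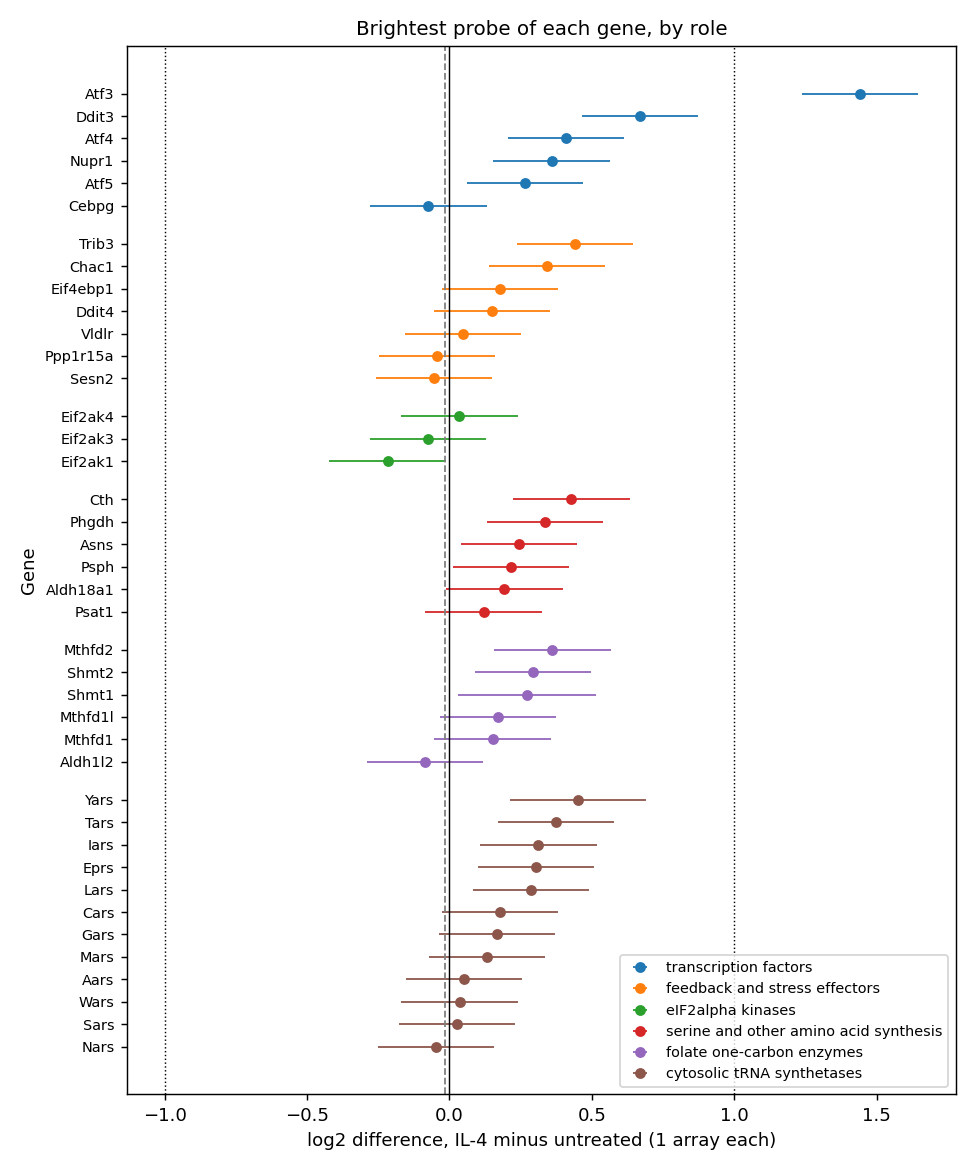
Log2 difference (IL-4-treated minus untreated, 1 array each) of the brightest probe of each of the 40 measured genes, grouped and coloured by role. Bars are the software's error of the difference, the dashed line is the median of all genes at -0.01 and the dotted lines mark a 2-fold difference. Atf3 at 1.44 is the one gene beyond a dotted line, and the 3 kinases lie around 0.

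**Figure D2:**
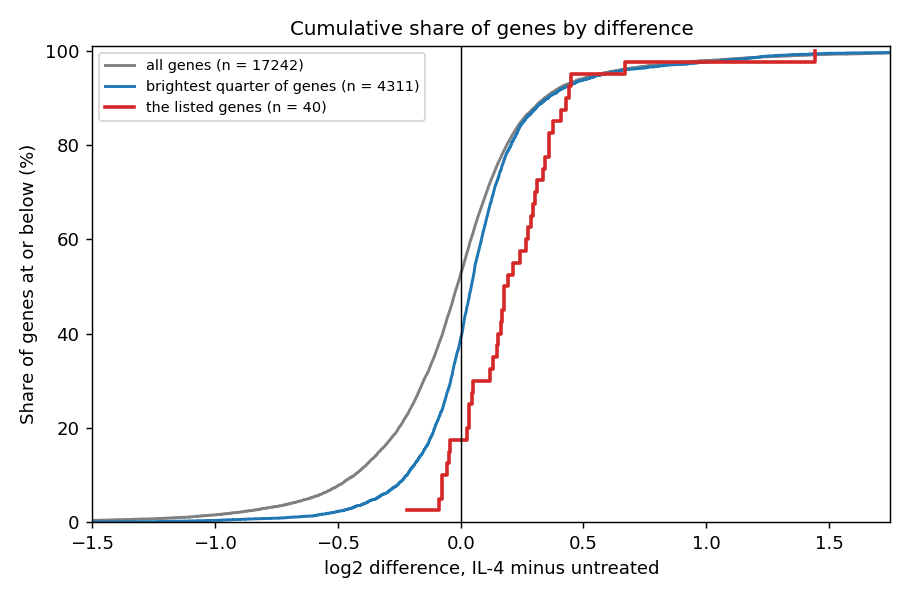
Share of genes (%) whose log2 difference was at or below the value on the horizontal axis, for the 40 listed genes, all 17242 genes detected in both conditions and the 4311 brightest of these. The curve of the listed genes runs to the right of both others from differences below 0 up to about 0.4, and the curves come together further right, where Ddit3 at 0.67 and Atf3 at 1.44 lie.

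**Figure D3:**
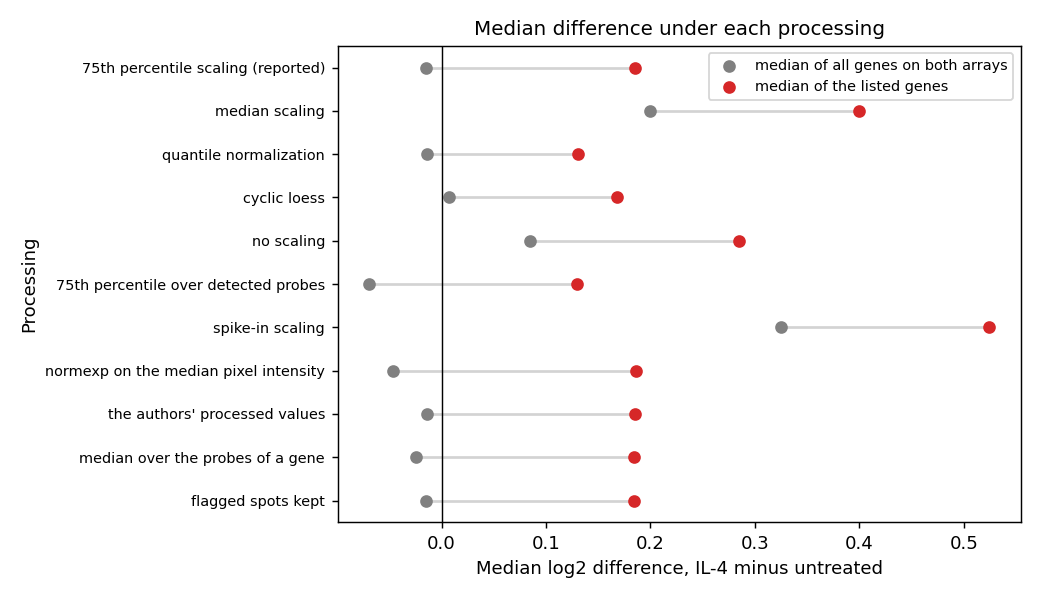
Median log2 difference (IL-4-treated minus untreated) of the 40 listed genes (red) and of all genes detected in both conditions (grey) under the reported processing and 10 others. The red point lies to the right of the grey one in every line, and both move furthest, to 0.52 and 0.32, with spike-in scaling.

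The promoters of the group can be searched for the element that ATF4 binds. Since the genes were selected as parts of the ATF4 response, how often they hold it is a description that the selection largely fixes. ATF4 binds next to a C/EBP protein at a composite element, searched here on both strands as TGATGNAAN in the 300 bases around each annotated start (250 before and 50 after it, RefSeq, GRCm38.p6). Of the 41 genes, 34 were in the promoter table, and 12 of these, or 35.3%, held the element, against 3.95% of all 32851 promoters and 4.50% of all 27025 genes. The 12 were Aars, Asns, Atf3, Chac1, Gars, Iars, Nupr1, Pycr1, Tars, Trib3, Vldlr and Yars, with 13 sites in all, of which 9 began with TGATGCAA, a run present in 0.895% of all promoters. Several of them, Asns, Atf3, Chac1 and Trib3 among them, are textbook ATF4 targets. The sequences below are those of the 8 genes that held the element and were higher by more than the error, and of Aars, which held it and differed by 0.05. Each runs 5′ to 3′ on the strand of its gene, with the element in capitals, which reads as its reverse complement where it lies on the opposite strand.
Atf3 (chr1:191183411-191183469, minus strand, 111 bases before the start): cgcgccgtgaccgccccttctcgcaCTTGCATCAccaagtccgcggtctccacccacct
Nupr1 (chr7:126625548-126625606, minus strand, 111 bases before the start): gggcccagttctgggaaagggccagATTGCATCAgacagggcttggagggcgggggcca
Chac1 (chr2:119351023-119351081, plus strand, 194 bases before the start): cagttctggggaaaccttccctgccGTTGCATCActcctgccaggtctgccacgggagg
Asns (chr6:7693210-7693257, minus strand, 23 bases before the start): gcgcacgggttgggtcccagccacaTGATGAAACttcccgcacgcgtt
Tars (chr15:11399659-11399699, minus strand, 16 bases before the start): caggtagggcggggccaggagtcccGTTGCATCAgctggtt
Aars (chr8:111033704-111033762, plus strand, 113 bases before the start): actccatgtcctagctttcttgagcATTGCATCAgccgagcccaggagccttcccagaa
Trib3 (chr2:152344029-152344057, minus strand, 14 bases after the start): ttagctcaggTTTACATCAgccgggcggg
Iars (chr13:49682126-49682154, plus strand, 7 bases after the start): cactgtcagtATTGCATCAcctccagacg
Yars (chr4:129189896-129189924, plus strand, 4 bases after the start): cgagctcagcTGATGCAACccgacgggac

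The commonest core, TGATGCAA on one strand or the other, was shared by 9 genes: Aars, Atf3, Chac1, Iars, Nupr1, Pycr1, Tars, Vldlr and Yars. The other cores were TGATGAAA at 3 sites, in Asns, in Gars and at a second site of Aars 9 bases after its start, and TGATGTAA at 1 site, in Trib3. Of the 13 sites, 9 lay before the start and 4 after it, and 10 lay on the strand opposite to the gene. The 11 measured genes with the element had a median difference of 0.34 and a range of 0.05 to 1.44, and 8 of them were higher by more than the error. The 22 measured genes whose promoters lacked it had a median of 0.16 and a range of -0.22 to 0.67, and 9 were higher by more than the error. Over all genes with a promoter in the table the element went with no such gap: the median difference was -0.04 for the 291 genes with it and -0.01 for the 9874 without it, and 22.0% and 18.2% were higher by more than the error. Atf4 itself, Ddit3, Phgdh, Psat1 and Mthfd2 had no match in this window, which says only that these letters are not there. A STAT6 element, TTC and GAA separated by any 4 bases, was found in the promoters of Chac1 and Shmt2, or 5.88% of the genes in the table, against 8.01% of all genes. The ER stress element was found in none of the group and in 0.137% of all genes. The 7 genes that were not in the table were Cars, Cth, Aldh1l2, Eif4ebp1, Wars, Lars and Nars.

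Among the transcription factors, 5 of 6 were higher by more than the error, with a median difference of 0.38, and all but Cebpg stayed above 0 under every setting. Atf3, a bZIP factor induced by ATF4 and by many other stress and cytokine signals, had an intensity of 6347 in untreated and 18466 in IL-4-treated cells. That is a log2 difference of 1.44 ± 0.20, or 2.72-fold, and 0.870% of all genes had a larger one. Ddit3, which encodes CHOP, a factor tied to cell death under ER stress, went from 909 to 1550, a difference of 0.67 ± 0.20, exceeded by 3.90% of all genes. These 2 genes stood apart from the rest of the group, in which the next difference was that of Yars at 0.45.

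Atf4 mRNA had an intensity of 76853 in untreated and 109309 in IL-4-treated cells, a difference of 0.41 ± 0.20. Because ATF4 is controlled largely through translation, its mRNA does not report its protein. A dimmer second probe for Atf4 gave 1859 and 2432, a difference of 0.29 ± 0.20, so both probes placed IL-4-treated cells higher. Nupr1, a small chromatin-associated stress protein, went from 12058 to 16564, a difference of 0.36 ± 0.20. Atf5, a relative of ATF4 linked to mitochondrial stress, went from 35470 to 45677, a difference of 0.27 ± 0.20. Cebpg, a C/EBP protein that pairs with ATF4, was at 1026 and 1044, a difference of -0.07 ± 0.20, within the error.

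The feedback and stress effectors were divided. Trib3, a pseudokinase that binds ATF4 and restrains AKT, had an intensity of 6905 in untreated and 10043 in IL-4-treated cells, a difference of 0.44 ± 0.20. Chac1, which degrades glutathione, went from 5003 to 6792, a difference of 0.34 ± 0.20. These were the 2 of 7 that were higher by more than the error, and the median of the 7 was 0.15. Eif4ebp1, which blocks cap-dependent translation, differed by 0.18 (13767 and 16678), and Ddit4, an inhibitor of mTORC1, by 0.15 (12893 and 15312). Vldlr, a lipoprotein receptor, differed by 0.05. Ppp1r15a, whose product GADD34 brings a phosphatase to eIF2alpha and ends the response, was at 3382 and 3515, a difference of -0.04 ± 0.20. Sesn2, which restrains mTORC1 when leucine is short, was at 2093 and 2160, a difference of -0.05 ± 0.20.

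The kinases that phosphorylate eIF2alpha lay around 0. Eif2ak4 (GCN2, the sensor of uncharged tRNA) was at 1362 and 1496, a difference of 0.04 ± 0.20, and Eif2ak3 (PERK, the ER stress sensor) at 986 and 1003, a difference of -0.08 ± 0.20. Eif2ak1 (HRI, the heme-regulated kinase) was at 537 and 495, a difference of -0.22 ± 0.21, and was the 1 gene of the group lower by more than the error, though its value ran from -0.27 to 0.12 over 10 other settings. Their median of -0.08 turned to 0.26 under spike-in scaling, while its distance from the median of all genes ran from -0.07 to -0.02 over 10 other settings. The activity of these kinases is set by phosphorylation, which the array does not measure.

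The enzymes of serine and other amino acid synthesis were all above 0 in all 10 settings, with a median of 0.23, and 4 of the 6 measured were higher by more than the error. Phgdh, which commits glycolytic carbon to serine, had an intensity of 8788 in untreated and 11891 in IL-4-treated cells, a difference of 0.34 ± 0.20. Psph, which releases serine in the last step, went from 4610 to 5733, a difference of 0.21 ± 0.20. Psat1, the aminotransferase between them, was at 13311 and 15494, a difference of 0.12 ± 0.20, within the error. All 3 enzymes of the serine route had a positive difference under every setting.

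The same list holds enzymes for 3 other amino acids. Cth, which makes cysteine from cystathionine, went from 374 to 539, a difference of 0.43 ± 0.21. Asns, the asparagine synthetase and a classic readout of ATF4, went from 18654 to 23652, a difference of 0.24 ± 0.20. Aldh18a1, which starts proline synthesis from glutamate, was at 554 and 678, a difference of 0.19 ± 0.21, just within the error.

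In folate one-carbon metabolism the 3 genes past the error were Mthfd2, Shmt2 and Shmt1, and the median of the 6 was 0.22. Mthfd2, the mitochondrial dehydrogenase and cyclohydrolase, had an intensity of 1689 in untreated and 2325 in IL-4-treated cells, a difference of 0.36 ± 0.20. Shmt2, which splits serine to glycine and a one-carbon unit in mitochondria, went from 4830 to 6348, a difference of 0.29 ± 0.20. Its cytosolic counterpart Shmt1 was at 106 and 137, a difference of 0.27 ± 0.24, but its second probe gave -0.20 ± 0.32 and its sign changed between settings. Mthfd1l, which releases formate from mitochondria, differed by 0.17 and Mthfd1, the cytosolic enzyme that takes it up, by 0.15, both within the error. Aldh1l2, which oxidises 10-formyl-tetrahydrofolate to carbon dioxide in mitochondria, was at 1456 and 1469, a difference of -0.09 ± 0.20.

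Cytosolic tRNA synthetases load each tRNA with its amino acid, and 11 of the 12 listed were above 0, with a median of 0.17. Under every other setting 8 of them stayed above 0. The error was exceeded by 5. Yars, for tyrosine, had an intensity of 91.1 in untreated and 133 in IL-4-treated cells, a difference of 0.45 ± 0.24, and was dim, with a spot SD of 0.16. Tars, for threonine, went from 6864 to 9541, a difference of 0.38 ± 0.20. Iars, for isoleucine, went from 7497 to 9976, a difference of 0.31 ± 0.20. Eprs, for glutamate and proline, went from 1144 to 1513, a difference of 0.30 ± 0.20, and Lars, for leucine, from 6068 to 7937, a difference of 0.29 ± 0.20. Cars, Gars, Mars, Aars, Wars, Sars and Nars lay within the error, between -0.05 for Nars and 0.18 for Cars.

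For 10 of the 40 genes a second probe was read on the same arrays, which checks the probe and not the cells. The probes of Mthfd1l and of Wars were annotated to different transcripts of their gene. The sign was shared for 6 of them: Atf4, Cth, Mthfd1l, Phgdh, Psat1 and Psph. For Aars, Shmt1, Vldlr and Wars it was opposite. The gap was widest for Aars, whose bright probe gave 0.05 ± 0.20 and whose dim one, at intensities of 46.7 and 35.2, gave -0.51 ± 0.38. Psat1 had the reverse order, with 0.12 from the brighter probe and 0.60 ± 0.21 from the dimmer one, at 534 and 867. The dimmer probes of Cth, Phgdh and Psph gave 0.13 ± 0.21, 0.16 ± 0.20 and 0.17 ± 0.20, all within the error. For each of these genes the brighter probe alone was past it.

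**Figure D4:**
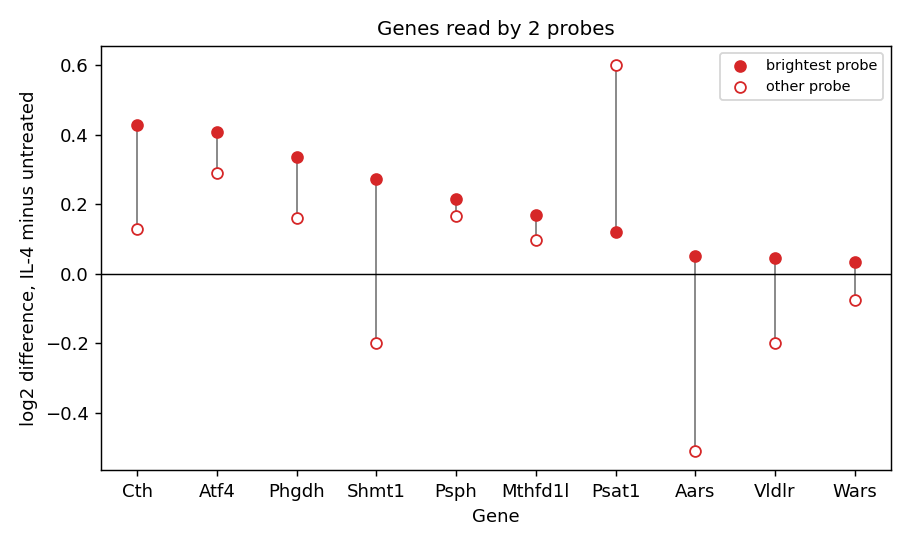
Log2 difference (IL-4-treated minus untreated) from the brightest probe (filled) and the other probe (open) of the 10 genes with 2 probes. The points lie on opposite sides of 0 for Shmt1, Aars, Vldlr and Wars, and the widest gap, for Aars, runs from 0.05 to -0.51.

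The group was also bright, and brightness moved with the difference over all genes. When all genes were split by mean signal into 4 bins of equal size, the median difference went from -0.13 in the dimmest through -0.05 and 0.01 to 0.04 in the brightest, where 61.1% of genes were above 0. Of the 40 genes 22 were in the brightest bin, 21 of these were above 0, and their median was 0.25. In that bin 13 of the 22 were higher by more than the error, against 20.1% of all genes there. In the next bin 13 genes had a median of 0.05, with 8 above 0, against 0.01 and 52.2% of all genes there. Of these 13 genes 3 were higher by more than the error, near the 19.1% of all genes in the bin. The median of the group lay above that of genes of like signal in both of these bins, and the part of brightness in the shift was not tested.

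Genes of the same pathways outside the group gave medians from -0.02 to 0.28. Among 18 other genes known as ATF4 targets, 17 were measured on both arrays, 9 were above 0, 6 were higher and 2 lower by more than the error, and the median was 0.01. Slc1a4, which takes up alanine, serine and cysteine, had the highest difference of any gene in these lists and in the group, 1.67 ± 0.20, or 3.19-fold. Adm2, a secreted peptide, had the lowest among these ATF4 targets, -0.47 ± 0.23, and Fgf21 was well above background on neither array. The other parts of the eIF2alpha pathway had a median of 0.12 over 12 genes, with Eif2b2, a subunit of the exchange factor that eIF2 needs, at 0.44 and Oma1, a mitochondrial protease, at -0.25.

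The 11 other cytosolic synthetases and scaffold proteins had a median of 0.22, 9 were above 0 and 6 were higher by more than the error, with Rars, for arginine, at 0.67 ± 0.21 and Qars, for glutamine, at -0.03. The 16 measured mitochondrial synthetases had a lower median, 0.07, and ran from -0.48 for Pars2 to 0.59 for Ears2. The 20 other folate, glycine and methionine cycle genes had a median of -0.02, with 5 higher and 3 lower by more than the error, and ran from -0.63 for Gldc, of the glycine cleavage system, to 0.46 for Tyms, which makes thymidylate. Amt, of the same cleavage system, was well above background in untreated cells only and at least 2.93-fold lower after IL-4. All 6 enzymes of purine synthesis were above 0, with a median of 0.28 and the first enzyme of the route, Ppat, at 0.53. The 6 other proline and glutathione genes had a median of 0.09, from -0.33 for Gclm to 0.37 for Pycrl.

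The ER unfolded protein response, which has its own sensors beside PERK, had a median difference of 0.21, beside 0.18 for the group. Of its 14 genes 13 were above 0 and 8 were higher by more than the error. Pdia4, a folding enzyme of the ER, was highest at 0.73 ± 0.20, and Ern1, which encodes the sensor IRE1alpha, lowest at -0.08 ± 0.21.

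**Figure D5:**
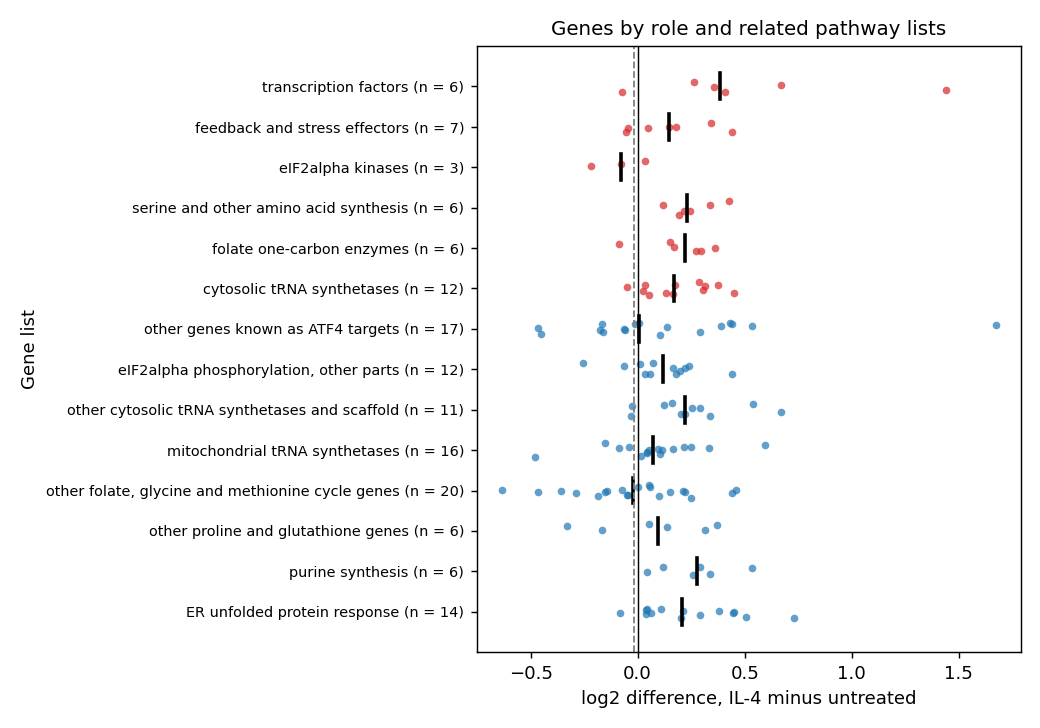
Log2 difference (IL-4-treated minus untreated) of each gene detected in both conditions, by role for the 40 listed genes (red) and by list for related pathways (blue), with the median of each as a black bar and the median of all genes as a dashed line. Purine synthesis, the ER unfolded protein response and the other cytosolic synthetases sit at medians of 0.28, 0.21 and 0.22, while the other ATF4 targets and the other folate genes sit at 0.01 and -0.02.

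The IL-4 response markers went with the labels of both arrays. All 4 IL-4 response markers were at least 2-fold higher: Arg1 by 7.76, Chil3 by 3.83 and Mrc1 by 2.42 on the log2 scale, and Retnla at least 595-fold, since it was not well above background in untreated cells. All 7 macrophage markers with a probe were detected in both conditions, with a median difference of -0.70 and a summed scaled signal of 313 in untreated and 280 in IL-4-treated cells. Fcgr1 (-1.23) and Mertk (-1.14) were at least 2-fold lower, Itgam (-0.71) and Lyz2 (-0.70) were lower by more than the error, and Csf1r (0.09) and Adgre1 (0.17) lay within it. Of 30 markers of other cell types with a probe, 14 were well above background in both conditions, 1 in untreated cells only and 15 in neither. The 4 stromal markers were present throughout, with a summed scaled signal of 342 in untreated and 313 in IL-4-treated cells, and the 5 neutrophil markers had 40.0 and 36.4. These sums are carried by a few bright probes, and within the lists Pdgfra (0.51) and Mpo (0.30) were higher by more than the error while Col1a1 (-0.34), Camp (-0.61) and Elane (-0.23) were lower by more than it. The part of other cells in the shift was not tested. In RNA from a whole culture, fewer cells of a type and less RNA per cell cannot be told apart.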

How the data were processed

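Total RNA of untreated and IL-4-treated BMDMs was labelled with Cy3 and hybridised to 1 array each. The authors deposited the output of Feature Extraction 10.10.1.1 and a table of processed log2 values. The software subtracts background and trends within an array from each deposited intensity and leaves the arrays unscaled. The scaling of that deposited log2 table was not given in the sources used here, and its differences for these genes departed from the scanner's by 0.00056.

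Outlier-flagged spots were left out, log2 intensity was averaged over the spots of a probe, and arrays were scaled to their 75th percentiles. Genes were named through RefSeq accessions (27229 of 39424 probes matched, GRCm38.p6, names only, since the array was annotated on mm9) and read from the brightest probe. A probe was well above background where the software flagged most of its spots. Where only one array was, the difference is a bound against the dim array's lowest signal that passed that flag, or the probe's own signal if higher. The spot SD came from 331 probes printed in 10 spots.

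No test was run. The members, pathway lists and motifs were chosen with earlier results of these data known. All 41 genes are accounted for. From each other list, the highest, the lowest and any gene at least 2-fold changed may be named, and Itgam, Lyz2, Csf1r, Adgre1 and Elane were named after their values were seen. Fgf21 was also named outside this rule. Of the counts, only that past 2-fold was checked on simulated data, with changes larger than 2-fold put in. The counts above 0 and past the error were not checked in this way. Python 3.11.15, pandas 2.3.3, numpy 2.4.6, R 4.3.3 and limma 3.58.1 were used. Alternatives were other scalings, background correction, probe rules, filters and cutoffs, with the authors' processed values. The counts above 0 and past the error were added to them after the data were seen.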

Additional observations from a re-analysis of the deposited data

How the results depend on the processing

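The median difference of the 40 genes was 0.18 and stayed positive under each of the 10 other settings that can move it. It was 0.40 with median scaling, 0.13 with quantile normalization, 0.28 with no scaling, 0.13 with a 75th percentile taken over detected probes alone and 0.52 with scaling on 10 spike-in probes. Scalings that subtract 1 value per array move every gene by the same amount, so the gap to all genes stayed at 0.20 under them. The number of genes higher by more than the error was 19, beside 17.5% of all genes, and became 33 with median scaling and 39 with spike-in scaling, which also took the share of all genes to 47.5% and 66.5%. The number at least 2-fold higher was 1 and became 2 with spike-in scaling, where Ddit3 reached 1.01. With the cutoff lowered to 1.5-fold, 2 genes were higher by at least that much. The share of all genes past the cutoff was not counted under either setting. The number at least 2-fold lower was 0 under each setting. Of the 40 genes, 27 were above 0 under all 10 settings run on single genes, 13 changed sign and 0 stayed below 0. The matching shares of all genes were not counted, here or for the single roles above. Median and spike-in scaling put 76.9% and 85.5% of all genes above 0, so few genes of any kind could stay below 0 under every setting. Atf3 ran from 1.36 to 1.78. No paired analysis was possible because there was a single array for either condition, and for the same reason no replicate could be left out. Signal over background limits Yars and Shmt1 most, with errors of 0.24.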
